A study of Mus musculus with 6 samples.

Results

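The 36 genes described here drive the cell division cycle, and they were read by gene name from a table of 41838 mouse genes in which all 36 were found. They fall into 14 genes of DNA replication and nucleotide supply, 12 genes of mitosis and proliferation, and 10 genes that control G1 and S phase. RNA came from livers of Alkbh5-HKO mice, which the sample titles call Alkbh5-CKO, and of Alkbh5flox/flox mice, with 3 independent biological replicates each and 1 library per replicate. ALKBH5 removes the N6-methyladenosine mark from RNA, and the study asks how it affects liver function. The mice were 9 weeks old per the series text, while the protocol counts 9 weeks on normal chow. Neither HKO nor CKO is spelled out in the labels, and the promoter that drives the deletion, the deleted part of the gene and the sex were not stated in the labels. Both groups are written below as HKO and flox.

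Adult hepatocytes rest outside the cell cycle and re-enter it after injury or partial loss of the liver. In G1, D-type cyclins bind CDK4 or CDK6 and phosphorylate the retinoblastoma protein RB1, which releases E2F transcription factors. E2F then turns on the genes that license and copy DNA. Genes of G2 and mitosis come on later, through FOXM1, MYBL2 and the MuvB complex at promoters that carry a CHR element and CCAAT boxes bound by NF-Y. In resting cells the DREAM complex of p130, E2F4 and MuvB holds both groups of promoters silent.

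Expression was deposited as FPKM, fragments scaled by gene length and a library size, and the read number behind each value was recovered from its steps. That library size was 0.925 (flox replicate 2) to 1.08 (flox replicate 3) times the sum of recovered reads. The libraries held 14907384 to 17034754 reads in HKO livers and 15015208 to 16956271 in flox livers. Alkbh5 had 0.508, 0.444 and 0.476 FPKM in HKO livers, against 17.8, 16.8 and 14.8 FPKM in flox livers, or 2.89% of the flox mean (limma, adjusted p = 8.14e-05). HKO replicate 1 lay farthest out on the first principal component. The hepatocyte markers, with Alb among them, summed to 54940 to 57860 FPKM in HKO livers and 49910 to 59920 FPKM in flox livers. All 6 libraries had Ddx3y and Eif2s3y of the Y chromosome at 11.35 FPKM or more and hardly any Xist reads, so both groups showed the male pattern.

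The replication genes averaged higher in HKO livers and the mitosis genes lower, although no single gene passed the test over all genes. By mean FPKM, 12 of the 14 replication genes were higher in HKO livers, Mcm7 and Mcm10 being the exceptions. Of the 12 mitosis genes 11 were lower, with Aurkb, at 29 reads in all, the exception. The 10 genes of G1 and S phase control divided into 4 higher and 6 lower. Among all genes tested on recovered reads 49.9% had a positive and 50.1% a negative log2 fold change, and among those tested on log2(FPKM + 1) 48.0% and 52.0%.

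The tests read the 36 genes from fits over the whole table. On log2(FPKM + 1), limma tested 10453 genes with a mean of at least 1 FPKM and called 28 of them higher in HKO livers (0.268%) and 23 lower (0.22%) at an adjusted p under 0.05. Of the 36 genes 16 reached that mean and 0 were called, against 0.488% of all tested genes in either direction. Below an unadjusted p of 0.05 lay 2 of the 16 as higher, against 8.57% of all tested genes, and 2 as lower, against 8.44%. Aurka, 1 of the 2 lower, averaged 0.917 FPKM in HKO livers and passed this filter only through flox livers. On recovered reads, limma voom tested 15046 genes with at least 30 reads and called 69 higher (0.459%) and 46 lower (0.306%). With the sum of reads as library size these were 93 higher and 50 lower. With the authors' library size 33 of the 36 genes were tested and 0 were called, against 0.764% of all in either direction, and 2 higher and 3 lower fell below an unadjusted p of 0.05, against 8.37% and 7.38% of all genes. The groups did not overlap for 8 of the 36, 5 with HKO above flox and 3 below, and in the voom set 12.4% of genes lay wholly above and 10.8% wholly below. These shares are near those of all genes. Adjusted p-values of the 36 genes ran over 0.206 to 0.927 in limma and 0.217 to 0.987 in voom, all with Benjamini-Hochberg adjustment over the tested genes.

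**Figure D1:**
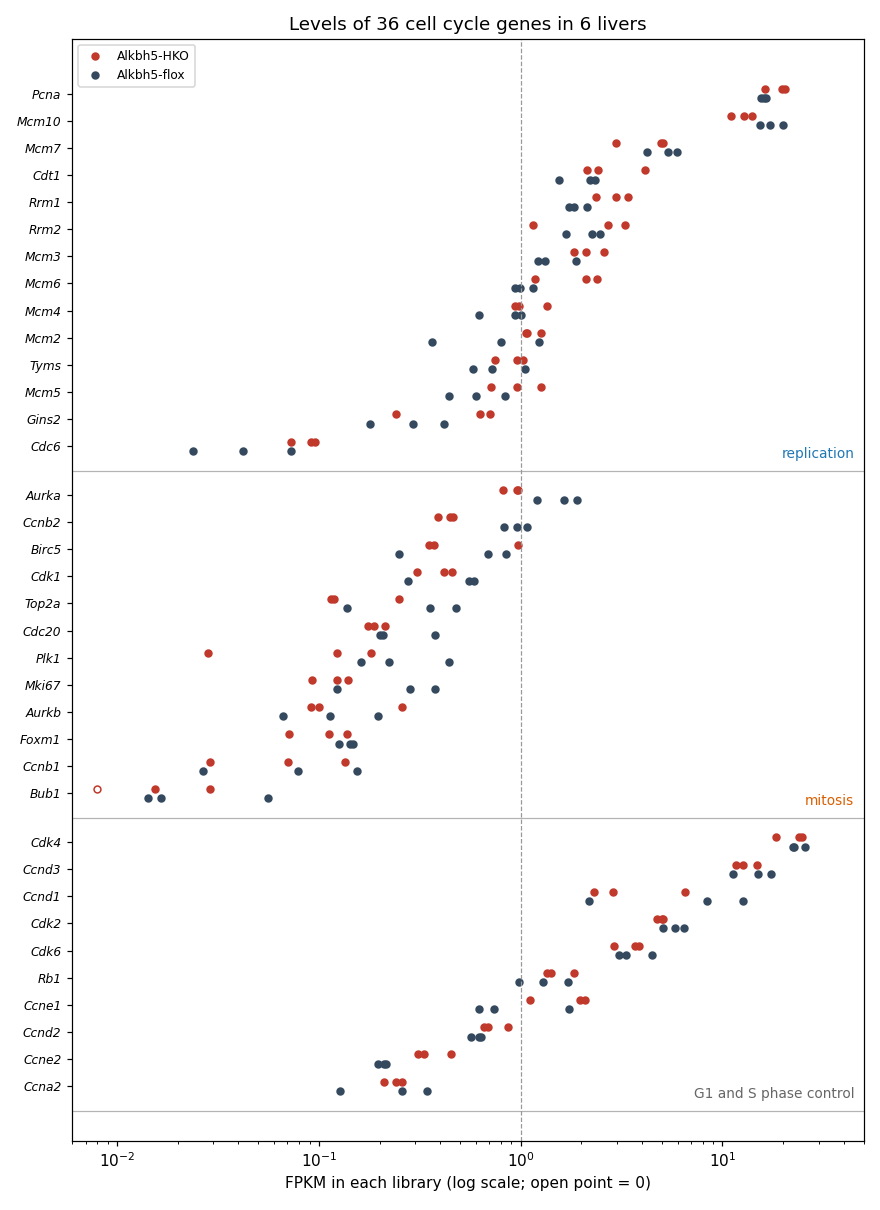
Each point is the FPKM of a gene in a liver, on a log scale, with the 36 genes listed by class and HKO drawn above flox for each gene. Most mitosis genes lay below 1 FPKM (dashed line), while Pcna, Mcm10, Cdk4 and Ccnd3 were the highest of the 36.

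The level that each class reached was set by a few genes. Replication genes summed to 52.5, 50.1 and 55.9 FPKM in HKO livers, against 51.5, 50.8 and 49.8 FPKM in flox livers. Their groups overlapped and the HKO mean was 1.04-fold the flox mean. Mcm10 and Pcna made up most of that sum and differed in opposite directions. Without Mcm10, left out after its values were seen, the sum was 39.7, 39.0 and 41.8 FPKM in HKO livers, against 34.2, 31.0 and 34.4 FPKM in flox livers, a 1.21-fold mean difference with no overlap. Leaving out Pcna as well gave 19.9, 22.7 and 21.5 FPKM in HKO livers and 17.8, 14.8 and 18.8 FPKM in flox livers, again without overlap.

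Mitosis genes summed to 3.63, 3.08 and 3.00 FPKM in HKO livers (3.24 ± 0.344, SD, n = 3), against 4.65, 5.38 and 5.30 FPKM in flox livers (5.11 ± 0.399, SD, n = 3). All HKO livers were below all flox livers, at 0.634 of the flox mean. In reads the 12 genes together had 169, 165 and 124 in HKO livers and 209, 222 and 250 in flox livers, so few reads carry this difference. Ccnb2 and Aurka gave the most FPKM, and without them the sums were 2.37, 1.67 and 1.64 FPKM in HKO livers and 2.48, 2.66 and 2.57 FPKM in flox livers, still without overlap. In bulk liver RNA, fewer dividing cells and less RNA per cell cannot be told apart.

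Set against each other within a library, summed replication FPKM was 14.5, 16.2 and 18.6 times summed mitosis FPKM in HKO livers (16.4 ± 2.08, SD, n = 3). The ratio was 11.1, 9.44 and 9.40 in flox livers (9.97 ± 0.952, SD, n = 3). Every HKO liver had a higher ratio than every flox liver, and the fold between the means was 1.65, or 0.72 on the log2 scale. It was 0.94 on the log2 scale without Mcm10 and 0.98 without Mcm10 and Pcna, and 0.81 without HKO replicate 1, the library farthest from the rest. Replication sums were 1.04-fold between the groups, so the ratio mostly restates the mitosis sums, which rest on 124 to 250 reads per library. For 51 further mitosis genes, described below, the summed HKO mean was 1.10-fold the flox mean. Abundant genes weigh most in that sum, as the highest mean was 15.4 FPKM and 41 of the 51 lay under 1 FPKM. By mean FPKM 33 of the 51 were lower in HKO livers and 18 higher. The ratio was made with the 12 only. No test was made of this ratio, since the members were chosen with earlier results of these data known.

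**Figure D2:**
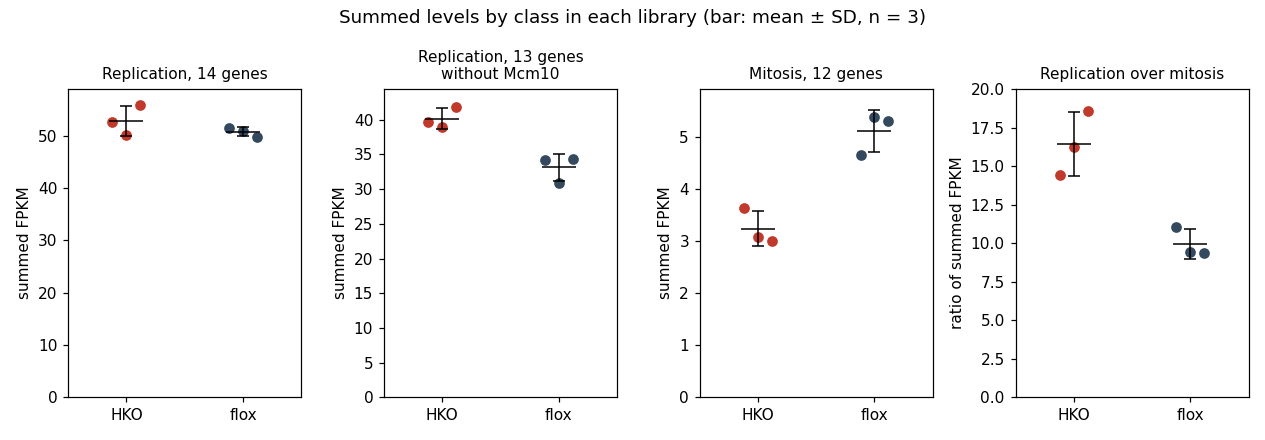
Summed FPKM of the replication genes, of the replication genes without Mcm10 and of the mitosis genes, and the ratio of replication to mitosis, with a point per liver and bars for mean ± SD (n = 3); HKO is left of flox. The mitosis sums separate at 3.00 to 3.63 FPKM in HKO livers and 4.65 to 5.38 FPKM in flox livers, while the sums of all 14 replication genes overlap.

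Leaving out any 1 liver kept the sign of the replication and mitosis medians but not their size. On log2(FPKM + 1) the replication median of 0.22 was 0.16 without flox replicate 2. The mitosis median of -0.08 was -0.124 without HKO replicate 1. Without flox replicate 2, limma had 0 members with an unadjusted p under 0.05 in either direction. Of the 14 replication genes 11 had their highest value in an HKO liver, 2 in replicate 1, 6 in replicate 2 and 3 in replicate 3. The lowest value lay in a flox liver for 11, 2 in replicate 1, 5 in replicate 2 and 4 in replicate 3. Of the 12 mitosis genes 10 had their highest value in a flox liver and 8 their lowest in an HKO liver. The median log2 fold change on recovered reads was 0.52 over the 14 replication genes, -0.76 over the 9 mitosis genes with enough reads and 0.02 over the 10 control genes. The median of all 15046 genes was -0.0006 on the same scale. On log2(FPKM + 1), which shrinks low genes, the medians over all members of a class were 0.22 for replication, -0.08 for mitosis and -0.02 for G1 and S phase control, beside -0.02 for the 10453 genes tested there.

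**Figure D3:**
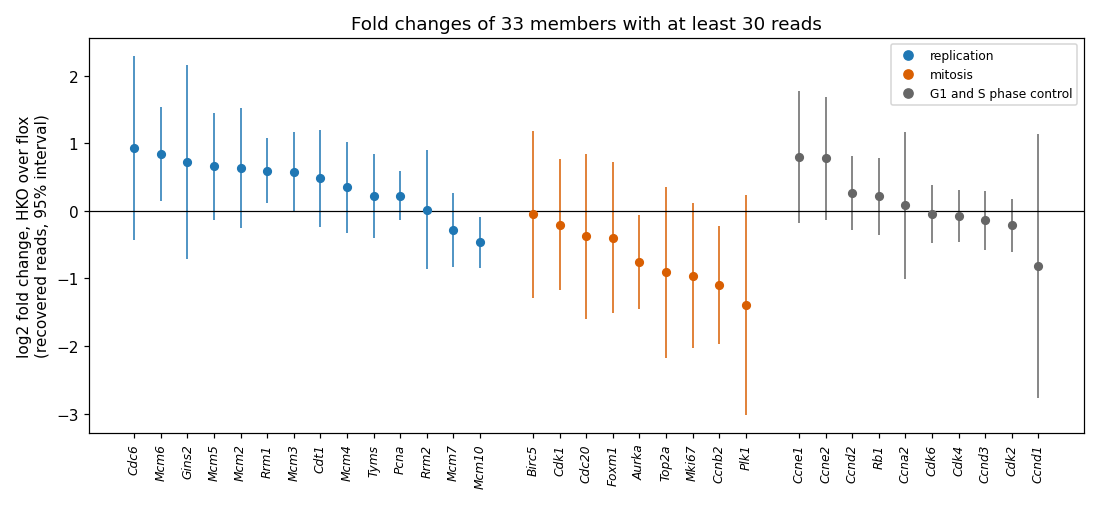
Log2 fold change of HKO over flox on recovered reads for the 33 genes with at least 30 reads, with 95% intervals and colours by class. All 9 tested mitosis genes have a point below 0 and 12 of 14 replication genes a point above 0, with wide intervals for the genes with few reads.

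The promoters of both classes differ in the sequences they carry, and these were read for 27 of the 36 genes from RefSeq promoters on GRCm38.p6, the build the submitters' processing notes name. A window spans 250 bases before to 50 after a start. An E2F motif was a match to TTCCCGC, to its variant TTCGCGC, to its variant TTGCCGC or to its variant TTGGCGC. The CHR element was searched as TTTGAA and the NF-Y box as CCAAT, all on both strands. The stretches below are the 250 bases before the start of 3 replication genes and 3 mitosis genes, 5′ to 3′ on the gene's strand. They are shown because Mcm6, Rrm1 and Mcm10 had the lowest unadjusted p of the replication genes, Ccnb2 had the lowest of the mitosis genes, and Mki67 and Top2a are widely used proliferation markers. Capitals mark matches to any of these motifs, on either strand, so CCAAT also appears as ATTGG and CHR also as TTCAAA.
Mcm6: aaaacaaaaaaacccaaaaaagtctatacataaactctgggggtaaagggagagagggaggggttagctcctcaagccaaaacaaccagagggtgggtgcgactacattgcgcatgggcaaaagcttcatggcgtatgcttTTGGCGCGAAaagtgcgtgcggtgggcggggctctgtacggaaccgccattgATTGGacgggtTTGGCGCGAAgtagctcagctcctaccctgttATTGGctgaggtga
Rrm1: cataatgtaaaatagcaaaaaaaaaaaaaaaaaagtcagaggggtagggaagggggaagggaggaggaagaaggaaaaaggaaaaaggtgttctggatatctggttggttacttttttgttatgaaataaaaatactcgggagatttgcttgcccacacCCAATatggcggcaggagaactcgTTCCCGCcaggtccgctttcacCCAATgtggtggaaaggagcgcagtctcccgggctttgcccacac
Mcm10: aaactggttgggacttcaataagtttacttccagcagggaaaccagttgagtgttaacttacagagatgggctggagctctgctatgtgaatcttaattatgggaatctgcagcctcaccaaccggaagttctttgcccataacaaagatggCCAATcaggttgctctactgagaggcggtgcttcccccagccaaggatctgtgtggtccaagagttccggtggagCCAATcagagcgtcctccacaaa
Ccnb2: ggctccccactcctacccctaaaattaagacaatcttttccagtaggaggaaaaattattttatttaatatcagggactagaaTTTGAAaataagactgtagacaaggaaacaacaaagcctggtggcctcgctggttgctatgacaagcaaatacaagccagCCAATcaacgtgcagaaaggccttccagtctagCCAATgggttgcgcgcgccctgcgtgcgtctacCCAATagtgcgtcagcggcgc
Mki67: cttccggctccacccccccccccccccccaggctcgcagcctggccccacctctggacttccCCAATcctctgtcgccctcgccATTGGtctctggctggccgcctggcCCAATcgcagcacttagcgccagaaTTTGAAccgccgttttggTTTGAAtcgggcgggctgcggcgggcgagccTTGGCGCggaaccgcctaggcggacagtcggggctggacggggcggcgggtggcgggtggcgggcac
Top2a: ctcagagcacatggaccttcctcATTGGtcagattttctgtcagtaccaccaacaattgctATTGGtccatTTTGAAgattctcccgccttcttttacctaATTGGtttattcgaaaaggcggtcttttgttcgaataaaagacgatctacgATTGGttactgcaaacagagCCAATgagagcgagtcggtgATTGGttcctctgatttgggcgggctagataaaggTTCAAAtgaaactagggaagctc

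The Mcm6 stretch is chr1:128359706-128359955 on the minus strand, and each of its longer capital runs holds a pair of overlapping E2F matches on opposite strands. Rrm1 (chr7:102441445-102441694 on the plus strand) holds 1 E2F match and 2 CCAAT boxes. Mcm10 (chr2:5012792-5013041 on the minus strand) holds 2 CCAAT boxes and no E2F match, and its RefSeq start lies inside the span that the deposited table gives for the gene. Ccnb2 (chr9:70421555-70421804 on the minus strand) holds 1 CHR match and 3 CCAAT boxes, Mki67 (chr7:135716380-135716629 on the minus strand) 2 CHR matches, 3 CCAAT boxes and 1 E2F match, and Top2a (chr11:99024190-99024439 on the minus strand) 2 CHR matches and 6 CCAAT boxes. The replication stretches printed here hold no CHR match.

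Over the classes, 8 of 12 replication genes with a RefSeq promoter held an E2F match (66.7%), as did 3 of 10 mitosis genes (30%) and 1 of 5 control genes. Among 17268 protein-coding genes 13.9% held one. The CHR element was matched in 1 of 12 replication genes (8.33%) and 7 of 10 mitosis genes (70%), beside 18.4% of all. CCAAT was matched in 75% of replication genes, 90% of mitosis genes and 42.3% of all. A match is only a description of these letters, and matches to different motifs can overlap.

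**Figure D4:**
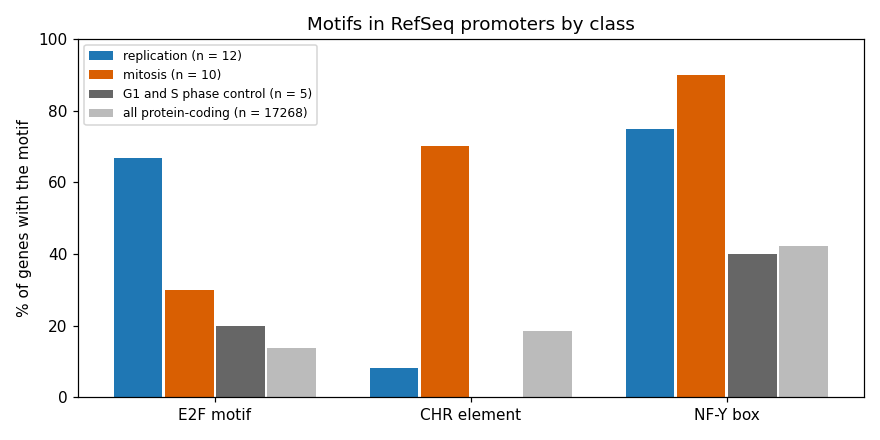
Share of genes whose RefSeq promoter window holds an E2F motif, a CHR element or an NF-Y box, by class and for all protein-coding genes. E2F matches are most frequent in the 12 replication genes (66.7%) and CHR matches in the 10 mitosis genes (70%).

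MCM2 to MCM7 form the ring-shaped helicase that is loaded at origins and unwinds DNA. Mcm6 had 2.11, 2.40 and 1.17 FPKM in HKO livers (1.90 ± 0.642, SD, n = 3), against 0.993, 1.15 and 0.937 FPKM in flox livers (1.03 ± 0.113, SD, n = 3). Every HKO value was above every flox value, although HKO replicate 3 nearly reached flox replicate 2. The mean was 1.84-fold that of flox livers, from 423 reads in HKO and 210 in flox livers, and the log2 fold change was 0.85 (SE 0.310, limma voom, unadjusted p = 0.0218, adjusted p = 0.228).

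Mcm2 had 1.08, 1.26 and 1.07 FPKM in HKO livers, against 1.23, 0.363 and 0.797 FPKM in flox livers. Its groups overlapped, with the lowest values in flox replicates 2 and 3 (log2 0.64, SE 0.397, limma voom, adjusted p = 0.470). It was 0.20 without flox replicate 2 and 1.03 without flox replicate 1. Mcm3, Mcm4 and Mcm5 had log2 fold changes of 0.57, 0.35 and 0.66 in the same fit, and the HKO and flox livers overlapped for each. That of Mcm4 was 0.18 without HKO replicate 1 and 0.15 without flox replicate 2. Mcm7 had 2.98, 5.08 and 4.96 FPKM in HKO livers, against 5.38, 4.21 and 5.95 FPKM in flox livers, and HKO replicate 1 was the lowest of the 6. Thus 5 of the 6 helicase subunits averaged higher in HKO livers and Mcm7 lower. Together the 6 summed to 10.3, 13.5 and 11 FPKM in HKO livers and 10.7, 8.28 and 10.95 FPKM in flox livers, a 1.17-fold mean difference with overlap. Summed without Mcm7, chosen after its values were seen, they gave 7.34, 8.45 and 6.04 FPKM in HKO livers and 5.29, 4.06 and 4.99 FPKM in flox livers, 1.52-fold and without overlap.

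MCM10 binds the loaded helicase and is needed to start unwinding, and it was the member that went the other way most clearly. Mcm10 had 12.8, 11.1 and 14.03 FPKM in HKO livers (12.7 ± 1.48, SD, n = 3), against 17.3, 19.9 and 15.4 FPKM in flox livers (17.5 ± 2.24, SD, n = 3). All HKO livers were below all flox livers, at 72.2% of the flox mean, with 4160 reads in HKO and 5423 in flox livers. The log2 fold change was -0.44 on log2(FPKM + 1) (limma, unadjusted p = 0.0203, adjusted p = 0.206). At these levels Mcm10 stood well above the helicase subunits, of which Mcm7 was the highest, and no other gene of the table overlaps it.

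Ribonucleotide reductase makes the deoxyribonucleotides for DNA synthesis, from the large subunit RRM1 and the small subunit RRM2. Rrm1 had 3.41, 2.36 and 2.99 FPKM in HKO livers (2.92 ± 0.527, SD, n = 3), against 2.12, 1.73 and 1.85 FPKM in flox livers (1.90 ± 0.203, SD, n = 3). The groups did not overlap and the mean was 1.54-fold that of flox livers (log2 0.59 on recovered reads, SE 0.217, limma voom, unadjusted p = 0.0214, adjusted p = 0.227). Rrm2 did not separate the groups, with 1.15 to 3.30 FPKM in HKO livers and 1.68 to 2.46 FPKM in flox livers. Tyms, the enzyme that makes thymidylate, had 0.745 to 1.03 FPKM in HKO livers and 0.581 to 1.048 FPKM in flox livers.

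PCNA is the sliding clamp that holds DNA polymerases on their template. Pcna had 19.8, 16.3 and 20.4 FPKM in HKO livers, against 16.4, 16.1 and 15.6 FPKM in flox livers, and HKO replicate 2 lay among the flox livers (log2 0.21 on log2(FPKM + 1), limma, adjusted p = 0.446). CDT1 and CDC6 load the helicase at origins. Cdt1 had 2.14 to 4.16 FPKM in HKO livers and 1.54 to 2.35 FPKM in flox livers. Cdc6 had 6, 9 and 7 reads in HKO livers and 6, 3 and 2 in flox livers, so its groups separated only by the scaling of equal counts. Gins2, a subunit of the GINS complex of the active helicase, had 27 reads in HKO and 14 in flox livers.

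**Figure D5:**
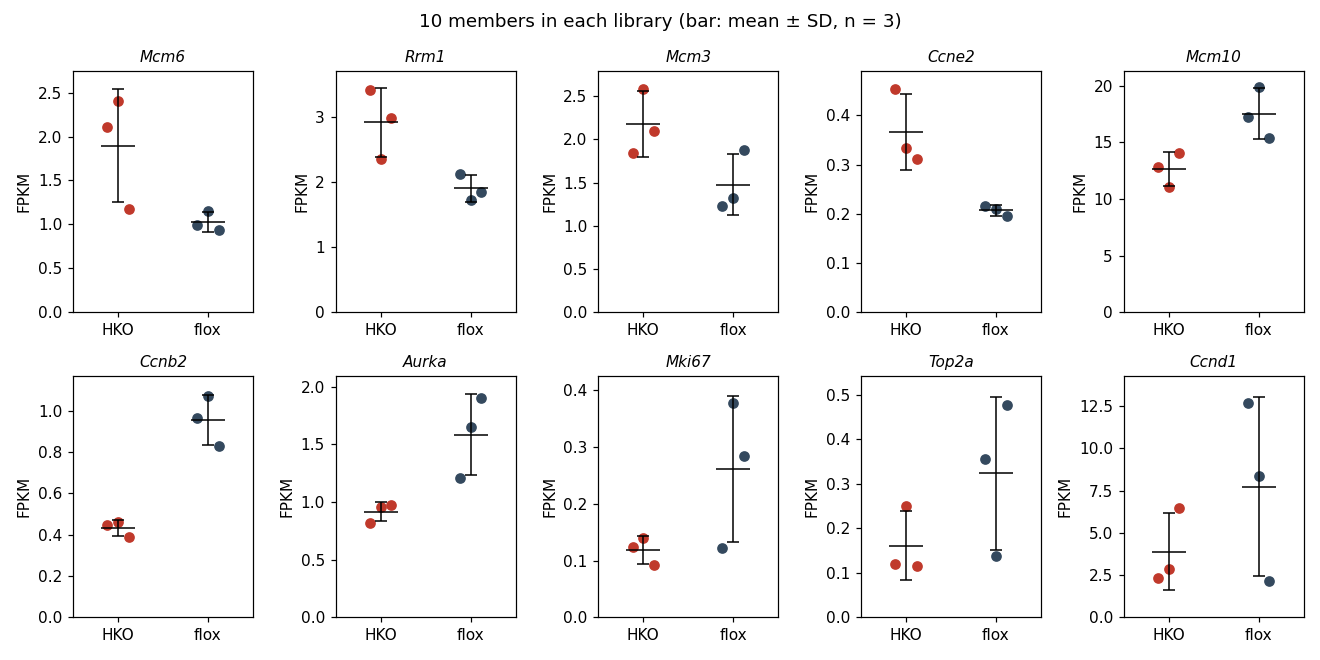
FPKM of 10 members in each liver, with a point per liver and bars for mean ± SD (n = 3); HKO is left of flox. Mcm6 and Rrm1 lie higher in all 3 HKO livers, and Mcm10, Ccnb2 and Aurka lie lower in all 3 HKO livers.

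The mitosis genes were rare transcripts, with class means between 0.0219 FPKM (Bub1) and 1.25 FPKM (Aurka) and only Aurka at 1 FPKM or more. Ccnb2 encodes a B-type cyclin that activates CDK1 for entry into mitosis. It had 0.446, 0.460 and 0.390 FPKM in HKO livers (0.432 ± 0.0373, SD, n = 3), against 0.965, 1.07 and 0.832 FPKM in flox livers (0.957 ± 0.122, SD, n = 3). The flox livers were all above the HKO livers and HKO stood at 45.1% of flox. This rests on 11, 13 and 9 reads in HKO livers and 24, 23 and 21 in flox livers (log2 -1.10, SE 0.392, limma voom, unadjusted p = 0.0193, adjusted p = 0.219).

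Aurka, the kinase of centrosomes and spindle poles, had 0.821, 0.955 and 0.974 FPKM in HKO livers (0.917 ± 0.0835, SD, n = 3), against 1.21, 1.65 and 1.90 FPKM in flox livers (1.58 ± 0.352, SD, n = 3). The groups did not overlap, and HKO stood at 57.8% of flox (log2 -0.76 on recovered reads, SE 0.311, limma voom, unadjusted p = 0.0356, adjusted p = 0.277). Its end overlaps Cstf1 on the other strand by 21 bases.

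Mki67, which encodes the proliferation marker Ki-67, had 0.124, 0.140 and 0.0924 FPKM in HKO livers, against 0.123, 0.378 and 0.284 FPKM in flox livers. HKO stood at 45.4% of flox, but HKO replicate 1 and flox replicate 1 had 20 reads each (log2 -0.96, SE 0.481, limma voom, adjusted p = 0.369). Top2a, the topoisomerase that untangles chromosomes, had 0.119, 0.250 and 0.115 FPKM in HKO livers, against 0.355, 0.138 and 0.478 FPKM in flox livers. It had 43 reads in HKO and 81 in flox livers (log2 -0.91, SE 0.563, limma voom, adjusted p = 0.467). Both proliferation markers overlapped between the groups.

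CDK1 is the kinase that drives mitosis. Cdk1 had 0.459, 0.305 and 0.420 FPKM in HKO livers, against 0.585, 0.554 and 0.278 FPKM in flox livers, with 55 reads in HKO and 62 in flox livers. Birc5, which encodes survivin of the chromosomal passenger complex, had 0.969, 0.351 and 0.371 FPKM in HKO livers, against 0.689, 0.843 and 0.250 FPKM in flox livers. Neither gene separated the groups. Plk1, a kinase of spindle assembly, had 1, 5 and 6 reads in HKO livers and 8, 5 and 16 in flox livers (log2 -1.39, SE 0.727, limma voom, adjusted p = 0.388). Without HKO replicate 1 its log2 fold change was -0.76.

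Cdc20, an activator of the anaphase-promoting complex, had 17 reads in HKO and 22 in flox livers. Foxm1, the transcription factor of mitotic genes, had 23 reads in HKO and 28 in flox livers. Their log2 fold changes on recovered reads were -0.38 for Cdc20 and -0.40 for Foxm1, and the groups overlapped for both. Too few reads to test were found for Ccnb1, with 9 in HKO and 9 in flox livers, Aurkb, with 16 in HKO and 13 in flox livers, and the checkpoint kinase Bub1, with 3 in HKO and 6 in flox livers. HKO replicate 2 had no Bub1 read, which allows up to 0.0377 FPKM at 3 reads, counting error only.

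In the control of G1 and S phase Ccnd1, a D-type cyclin, had the widest range over the 6 livers. It had 2.31, 2.89 and 6.49 FPKM in HKO livers, against 12.7, 8.36 and 2.17 FPKM in flox livers. Flox replicates 1 and 2 were above all HKO livers and flox replicate 3 was the lowest of the 6, a 5.83-fold range within the flox group (log2 -0.69 on log2(FPKM + 1), limma, adjusted p = 0.559). Ccnd1 also overlaps Oraov1 on the other strand by 1216 bases. Ccnd2 had 0.864, 0.686 and 0.661 FPKM in HKO livers, against 0.624, 0.566 and 0.634 FPKM in flox livers, which did not overlap but differed little (log2 0.26, limma voom, adjusted p = 0.637).

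Ccnd3 had 11.7, 12.6 and 14.9 FPKM in HKO livers, against 17.5, 15.1 and 11.3 FPKM in flox livers. Of the kinases that bind the D-type cyclins, Cdk4 had 18.4, 24.0 and 24.9 FPKM in HKO livers, against 25.7, 22.5 and 22.3 FPKM in flox livers. Cdk6 had 2.91 to 3.88 FPKM in HKO livers and 3.06 to 4.47 FPKM in flox livers. The groups overlapped for all 3 of these genes, and the sign of Cdk6 turned when FPKM was scaled to the sum of reads.

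The E-type cyclins carry cells into S phase with CDK2. Ccne2 had 0.455, 0.333 and 0.311 FPKM in HKO livers, against 0.217, 0.210 and 0.196 FPKM in flox livers. All HKO livers were above all flox livers, on 62 reads in HKO and 33 in flox livers (log2 0.77, SE 0.406, limma voom, adjusted p = 0.389). The gene overlaps Ints8 on the other strand by 5622 bases. Ccne1 had 1.12 to 2.08 FPKM in HKO livers and 0.624 to 1.74 FPKM in flox livers (log2 0.44 on log2(FPKM + 1), limma, adjusted p = 0.403).

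Cdk2 itself had 4.73 to 5.08 FPKM in HKO livers and 5.05 to 6.47 FPKM in flox livers. Ccna2, the cyclin of S phase and G2, had 0.211 to 0.258 FPKM in HKO livers and 0.127 to 0.343 FPKM in flox livers. Rb1 had 1.84, 1.42 and 1.35 FPKM in HKO livers, against 1.72, 0.986 and 1.29 FPKM in flox livers, and the groups overlapped. The control genes thus had no common direction, and the sign of their median turned to 0.02 when FPKM was scaled to the sum of reads. Of the 36 genes 10 overlap a gene on the other strand, and the strand setting of the counting was not stated, so reads from both partners cannot be told apart.

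The wider replication machinery, from a list of 43 further genes that was drawn up with earlier results of these data known, had the direction of the 14. By mean FPKM 36 of the 43 were higher in HKO livers and 7 lower, and 10 lay wholly above flox and 0 wholly below, beside 12.4% and 10.8% of all genes tested on recovered reads. Of the 28 tested by limma 0 were called, beside 0.488% of all genes tested. As higher, 8 had an unadjusted p under 0.05, beside 8.57% of all genes tested, and 0 as lower, beside 8.44%. Their median log2 fold change was 0.22 on log2(FPKM + 1) and 0.32 on recovered reads over 39 genes. Summed, the 43 had 153, 147 and 139 FPKM in HKO livers, against 119, 118 and 127 FPKM in flox livers, 1.2-fold by the means.

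Replication protein A, which coats single-stranded DNA, had its 3 subunits among the genes with the lowest p. Rpa1 had 11.3, 10.6 and 10.3 FPKM in HKO livers, against 7.09, 7.57 and 6.34 FPKM in flox livers (log2 0.55, limma, adjusted p = 0.0911). Rpa3 had 10.8, 8.38 and 8.89 FPKM in HKO livers, against 4.47, 3.72 and 7.94 FPKM in flox livers (log2 0.75, limma, adjusted p = 0.192). Rpa2 had 3.82, 4.01 and 4.68 FPKM in HKO livers, against 3.10, 3.23 and 2.43 FPKM in flox livers (log2 0.40, limma, adjusted p = 0.213). For each subunit every HKO liver was above every flox liver.

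Gmnn, which encodes geminin, the inhibitor of CDT1, had 8.96, 6.11 and 7.84 FPKM in HKO livers, against 5.11, 3.07 and 5.88 FPKM in flox livers (log2 0.62, limma, adjusted p = 0.229). Chaf1b, a subunit of the chromatin assembly factor that follows the fork, had 1.10, 1.5 and 1.28 FPKM in HKO livers, against 1.004, 0.672 and 0.450 FPKM in flox livers (log2 0.43, limma, adjusted p = 0.242). Both separated the groups without passing over all genes. Chaf1b averaged 0.709 FPKM in flox livers and reached the filter mean of 1 FPKM only through HKO livers. Its test is thus no support, though it counts among the 8 with an unadjusted p under 0.05.

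A list of 51 further mitosis genes did not have the one-sided direction of the 12. By mean FPKM 18 were higher in HKO livers and 33 lower, with 2 wholly above and 9 wholly below flox, beside 12.4% and 10.8% of all genes tested on recovered reads. On recovered reads 39 were tested, 16 higher and 23 lower, a median log2 fold change of -0.27, and 0 called. Limma tested only 10 of them, of which 8 were higher, with a median of 0.12. Summed, the 51 had 75.8, 66.2 and 62.2 FPKM in HKO livers, against 59.5, 62.1 and 64.3 FPKM in flox livers. The groups overlapped and the HKO mean was 1.10-fold the flox mean. Abundant genes weigh most in this sum, as 41 of the 51 averaged under 1 FPKM. Mad2l1, a spindle checkpoint gene, had 1.65, 1.39 and 1.41 FPKM in HKO livers, against 1.10, 0.829 and 0.498 FPKM in flox livers (log2 0.47, limma, adjusted p = 0.212). It averaged 0.809 FPKM in flox livers and passed the limma filter only through HKO livers, so its test is no support.

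Among 8 genes of CDK inhibitors 6 averaged higher in HKO livers and 2 lower. Of the 8, 2 lay wholly above flox and 2 wholly below, beside 12.4% and 10.8% of all genes tested on recovered reads. Limma tested 3, all higher, and called 0, beside 0.488% of all genes tested. The 2 wholly above were Cdkn1b, at 11.48, 8.55 and 8.71 FPKM in HKO livers and 5.59, 7.66 and 8.25 FPKM in flox livers, and Cdkn2c, at 4.66, 4.55 and 4.71 FPKM in HKO livers and 3.30, 4.25 and 3.20 FPKM in flox livers. They encode p27 and p18 and were picked out after their values were seen. Cdkn1a, which encodes p21, the p53-induced inhibitor of CDK2, had 0.0153, 0.161 and 0.344 FPKM in HKO livers, against 1.08, 0.955 and 2.29 FPKM in flox livers. All HKO livers were below all flox livers on 278 reads in flox livers (log2 -3.62, limma voom, unadjusted p = 0.00238, adjusted p = 0.0958). HKO replicate 1 lay near the floor, so the size of this fold change is uncertain. Cdkn1a was picked out after its values were seen, so its p is no support. Among 11 pocket protein, E2F partner and MuvB genes limma tested 7 and called 0, beside the same 0.488%. Lin9 of the MuvB core had 1.78, 1.32 and 1.84 FPKM in HKO livers, against 0.844, 0.676 and 0.758 FPKM in flox livers (log2 0.58, limma, adjusted p = 0.106). Lin9 passed the limma filter of 1 FPKM only through HKO livers, so its test is no support. Tfdp2, an E2F dimer partner, had 2.82 to 3.27 FPKM in HKO livers and 1.74 to 2.45 FPKM in flox livers (log2 0.36, limma, adjusted p = 0.249).

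Cells other than hepatocytes can divide in the liver, and some of their markers differed between the genotypes. Erythroid markers summed to 108, 121 and 214 FPKM in HKO livers, against 371, 356 and 677 FPKM in flox livers, with 8 of 10 lower, most of it globin. Hbb-bt, a globin gene with a near-identical copy that may share its reads, was the 1 marker that fell by the limma test (adjusted p = 0.0373). Of all genes tested by limma 0.22% were called lower. On recovered reads limma voom called 2 lower, beside 0.306% of all genes tested: Hbb-bt (adjusted p = 0.0202) and Slc4a1 of the red cell membrane. Slc4a1 had 0 reads in HKO livers and 31 in flox livers. It passed the filter of 30 reads only through flox livers, so its call is no support. Limma, which did not test Slc4a1, tested 6 markers. Of these 5 had an unadjusted p under 0.05 as lower, beside 8.44% of all genes tested. By FPKM 6 of the 10 lay wholly below flox, beside 10.8% of all genes tested on recovered reads. Of the genes that define erythroid precursors, Gata1 had 0 reads in all 6 livers and Klf1 had 3.22 to 5.13 FPKM in HKO livers and 2.67 to 3.52 FPKM in flox livers. Markers of T and NK cells summed to 7.36, 10.01 and 6.46 FPKM in HKO livers, against 4.59, 2.67 and 5.83 FPKM in flox livers. Of the 12, 11 averaged higher and 0 were called. Among all genes tested on recovered reads 0.459% were called higher. Cholangiocyte markers, carried by Spp1, summed to 20.7 to 23.3 FPKM in HKO livers and 26.2 to 36.4 FPKM in flox livers. By mean FPKM, however, 4 of these 6 markers were higher in HKO livers and 2 lower.

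The other marker sums overlapped between the groups. Kupffer cell markers summed to 180 to 312 FPKM in HKO livers and 168 to 258 FPKM in flox livers, and stellate cell markers to 63.4 to 69.7 FPKM in HKO livers and 36.9 to 64.8 FPKM in flox livers. Sinusoidal endothelial markers summed to 25.4 to 27.3 FPKM in HKO livers and 23.6 to 31.9 FPKM in flox livers. Markers of B and plasma cells summed to 2.09 to 5.09 FPKM in HKO livers and 2.42 to 5.05 FPKM in flox livers, and those of neutrophils to 3.16 to 3.72 FPKM in HKO livers and 1.56 to 10.9 FPKM in flox livers. The part of any of these cell types in the replication and mitosis values was not tested.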

How the data were processed

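Poly(A) RNA of 6 livers was read as paired ends on a NovaSeq, per the labels' protocols. The authors deposited 1 table of FPKM per gene. Per the series text, HISAT2 2.0.5 aligned the reads to GRCm38.p6 and featureCounts 1.5.0-p3 counted them per gene. CASAVA and DESeq2 1.20.0 stand in the submitters' processing notes with no role. The annotation and strand setting were not stated.

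Reads were recovered as FPKM times gene length over the smallest positive product of the column, and 100% came out whole within 0.001. Median-of-ratios factors of the deposited columns were 1 in every library, so the deposited FPKM were already on that scale. limma 3.58.1 with trend and robust options (R 4.3.3) compared HKO with flox on log2(FPKM + 1), with a pseudocount of 1 FPKM, for genes with a mean of at least 1 FPKM. limma voom was run on recovered reads for genes with at least 30 reads in all, with the authors' library size. P-values were adjusted by Benjamini-Hochberg over all tested genes, with a threshold of 0.05. A fold change on log2(FPKM + 1) understates that of low genes. The fits were tested on simulated data.

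The members and lists were chosen with earlier results of these data known. Values in every library are given for members with an unadjusted p under 0.05 in either fit, those whose groups do not overlap, the 3 highest of each class, and Mki67, Top2a, Cdk1, Pcna, Mcm2, Ccnd1 and Rb1; Cdc6 is given in reads. Genes of other lists are named at an unadjusted p under 0.05 in limma, up to 6 a list, and some that met this are not reported here. Cdkn1a, from the voom fit, Cdkn1b, Cdkn2c and Slc4a1 were named outside this rule after their values were seen. Of 234 symbols on 14 other lists 232 were found; Sgo1 and Tf were not. Alternatives changed the pseudocount, the filter, the scaling, the fit, the block and the libraries.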

Additional observations from a re-analysis of the deposited data

How the results depend on the processing

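The members called stayed at 0 in both directions under every alternative run. Over all genes, 28 were called higher and 23 lower in HKO livers. A pseudocount of 0.1 FPKM gave 18 higher. Without a filter, with 23371 genes tested, 0 were higher and 1 lower, and 1312 higher and 1202 lower had an unadjusted p under 0.05. On recovered reads the counts were 69 higher and 46 lower, and with the sum of reads as library size 93 higher and 50 lower. Leaving out a library gave 0 to 29 higher and 1 to 41 lower; without HKO replicate 1 they were 1 higher and 2 lower, without HKO replicate 2 or flox replicate 2 0 higher and 1 lower, without flox replicate 1 0 higher and 2 lower, and without flox replicate 3 41 were lower. With the replicate block 1 was higher and 8 lower. Same-numbered libraries correlated at 0.153, -0.145 and -0.0514, and the other pairs at -0.157 to 0.248. These few values cannot show whether same-numbered libraries share a batch.

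The replication median of 0.22 was 0.41 with a pseudocount of 0.1 and 0.0723 with 5 FPKM, 0.27 scaled to the sum of reads, 0.52 on recovered reads and 0.60 on those with the sum of reads as library size, and 0.16 to 0.23 with a library left out. The mitosis median of -0.08 was -0.25, -0.0197, -0.06, -0.76 and -0.68 under the same settings and -0.124 to -0.0685 with a library left out. The log2 ratio of replication to mitosis of 0.72 was 0.94 without Mcm10 and 0.98 without Mcm10 and Pcna, both chosen after seeing the data, and 0.63 to 0.81 with a library left out. The medians on log2(FPKM + 1) cover all members of a class, and those on recovered reads the tested ones, 9 of 12 for mitosis. The filters and the block were not run for medians. The cause of these shifts was not tested.

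The log2 fold change turned its sign for Rrm2 (-0.14 to 0.36 with a library left out), Birc5 (-0.60 to 0.26), Ccna2 (-0.32 to 0.36, and -0.012 with the replicate block), Cdk4 (-0.15 to 0.0576) and Cdk6 (-0.12 to 0.0939, 0.0236 scaled to the sum of reads and 0.0288 on recovered reads with that size). Values with a library left out also spread over 0.42 to 0.90 for Mcm5, 0.12 to 0.48 for Cdt1, 0.55 to 0.94 for Cdc6, 0.43 to 1.17 for Gins2, -1.38 to -0.55 for Top2a, -0.58 to -0.16 for Foxm1, -1.31 to -0.25 for Ccnd1 and 0.30 to 0.68 for Ccne1. Few reads limit the mitosis genes.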
